A study of Saccharomyces cerevisiae with 2 samples.

Results

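Uncharacterized open reading frames (ORFs) are those that the annotation lists as likely protein-coding genes without experimental evidence for their product, and Verified ORFs are those with such evidence. The deposited tables give both replicates the same annotation, and 728 of 5798 ORFs (of 6198 annotated features) had the feature type ORF and the qualifier Uncharacterized in both. The 5066 Verified ORFs served as the comparison. Total RNA came from 1 strain of budding yeast, JZY65, which lacks the coding sequence of RPB4 (this gene encodes an RNA polymerase II subunit), grown in YPD (rich medium) at 30 °C to mid-log phase. The strain was sampled in 2 biological replicates, which form the only group. A parental strain is not among the samples, and nothing below measures what the deletion does. Every ORF was measured in the same libraries, and ORFs are not replicates of a condition, so differences between the qualifiers are given as values in each replicate with no test.

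A yeast messenger RNA ends where the cleavage and polyadenylation machinery cuts the nascent transcript downstream of the stop codon and adds a poly(A) tail. Most yeast genes use a cluster of neighbouring cleavage sites, placed by AT-rich elements around them. The 3' READS assay sequences the end of each RNA next to its tail, so 1 read marks 1 poly(A) site and read numbers need no scaling by gene length. For an uncharacterized ORF such reads show that a polyadenylated RNA ends behind the ORF, and they do not show that a protein is made. In bulk RNA, fewer cells with a transcript and fewer molecules per cell cannot be told apart. PCR copies were counted as reads, so intervals and limits cover counting error only.

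Over all ORFs, the 400 nt behind the stop codon (the window) held 27375875 (replicate 1) and 24905701 (replicate 2) reads. A window with 0 reads allows up to 3 reads of these totals. No read lay inside RPB4 in either replicate. Reads lay downstream of it (4486 and 4066), outside the deleted part, where they check nothing. The Uncharacterized ORFs took 3.84% and 3.90% of all ORF window reads. Coordinates matched assembly R64 in 724 of the 728 and are printed as the files give them.

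Fewer of the Uncharacterized ORFs than of the Verified ORFs had a measurable 3' end. At least 100 window reads in both replicates, the minimum for every position given below, were present for 407 of 728 Uncharacterized ORFs (55.9%) and for 4531 of 5066 Verified ORFs (89.4%). Another 111 Uncharacterized ORFs (15.2%) had no window read in either replicate, against 77 Verified ORFs (1.52%), and 210 lay in between. The median over all Uncharacterized ORFs was 235.5 and 211.5 window reads, and over all Verified ORFs 1227 and 1175, which is 5.21 and 5.56 times as many. The upper end differed as well, since 17 Uncharacterized ORFs (2.34%) and 460 Verified ORFs (9.08%) had more than 10000 window reads in both replicates. Just inside the minimum lay YPL272C with 103 and 127 window reads and YIL024C with 104 and 150. Just outside it lay YGL194C-A with 99 and 112 and YIR020C with 98 and 140.

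**Figure D1:**
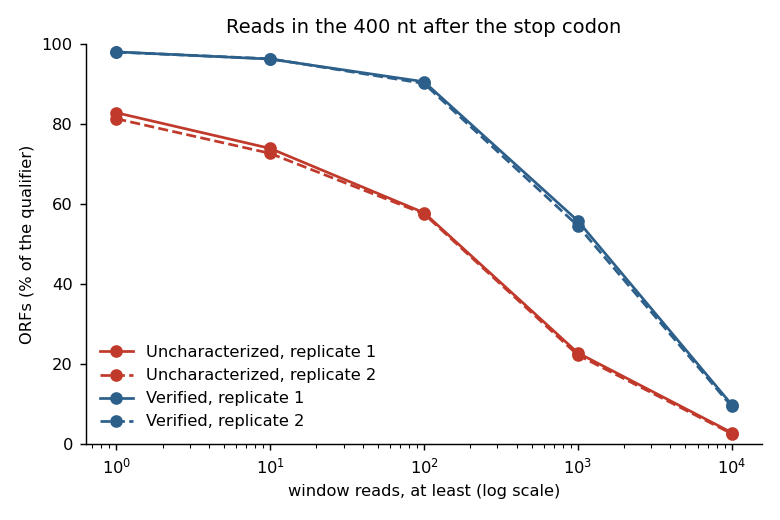
Percent of Uncharacterized (red) and Verified (blue) ORFs, vertical axis, with at least the number of window reads on the horizontal log axis; solid lines are replicate 1 and dashed lines replicate 2. At 100 reads the curves stand at 57.8% and 57.6% against 90.6% and 90.1%, and at 1000 reads at 22.8% and 22.3% against 55.8% and 54.6%.

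Position on the chromosome and ORF length both went with the share measured. Of the Uncharacterized ORFs, 90 lay within 20 kb of the outermost annotated feature of a chromosome, and 9 of them passed the minimum. Of the 162 Verified ORFs there, 77 passed (47.5%). Elsewhere 398 of 638 Uncharacterized ORFs (62.4%) and 4454 of 4904 Verified ORFs (90.8%) passed, so for both qualifiers the share that passed was lower near chromosome ends. The median ORF length was 709.5 nt for Uncharacterized and 1287 nt for Verified ORFs. It was 951 nt for the 407 Uncharacterized ORFs used and 369 nt for the 321 others. Below 300 nt, 45 of 167 Uncharacterized ORFs (26.9%) passed, against 94 of 115 Verified ORFs (81.7%). From 300 to 600 nt the numbers were 56 of 149 (37.6%) and 514 of 600 (85.7%). From 600 to 1200 nt they were 146 of 213 (68.5%) and 1447 of 1632 (88.7%), and from 1200 nt on 160 of 199 (80.4%) and 2476 of 2719 (91.1%). The share measured thus lay below that of Verified ORFs in each of these length classes, and the gap was smallest among the longest ORFs. With Verified ORFs weighted to the Uncharacterized lengths, 87.5% of them passed.

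The deposited description of each ORF often records how it was noticed, and read numbers differed along with it. Groups were formed from its wording after the descriptions had been read. ORFs whose green fluorescent protein (GFP) fusion had been observed were widely read, with 123 of 138 used (89.1%) and medians of 728 and 732.5 window reads. Those whose protein had been detected in purified mitochondria followed, with 33 of 38 used (86.8%). ORFs found by gene trapping (random insertion of a reporter) stood at the other end. Only 2 of 34 passed the minimum, 13 had no window read in either replicate, and the medians were 2.5 and 0 reads. The 2 that passed were YJL077W-B, with 1649 and 1519 reads, and YBR126W-A, with 1571 and 1589, whose window overlaps another feature. ORFs found by fungal homology and RT-PCR had 7 of 33 used, with medians of 4 and 0. Those found by expression profiling and mass spectrometry had 7 of 20 used, and those found by ribosome profiling 5 of 15. The 94 ORFs described as of unknown function and nothing more had medians of 45.5 and 29 reads, and 35 were used. Of the 10 ORFs in Y' elements, repeated blocks next to telomeres, 8 had no window read in either replicate. The sources used here do not say how reads matching several places were treated, so 0 reads in such a repeat need not mean that no RNA ends there. None of the 4 flocculin fragments was used. The groups differ in ORF length. Among ORFs below 300 nt, 6 of 7 with a GFP fusion (medians 826 and 722 reads) and 2 of 31 found by gene trapping (4 and 0) were used.

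**Figure D2:**
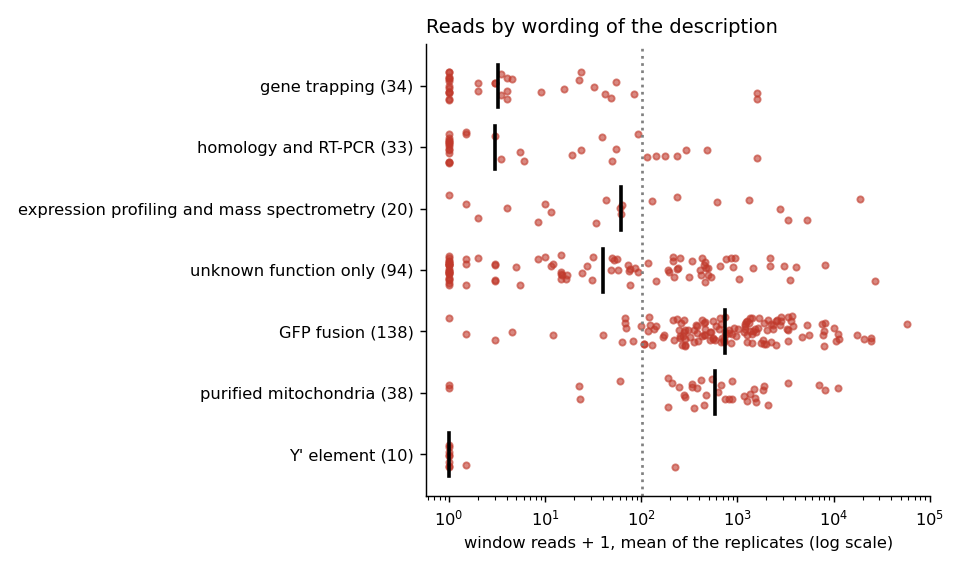
Window reads plus 1, mean of the 2 replicates, on a log axis, for each Uncharacterized ORF (red points) in 7 groups by the wording of its description, with the number of ORFs in brackets; black bars are group medians and the dotted line marks 100 reads. Most ORFs with a GFP fusion lie right of the line, and 32 of the 34 found by gene trapping lie outside those used.

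Reads of the Uncharacterized ORFs were concentrated in few of them, as the 10 most read took 35.8% and 34.2% of all their window reads. PMT7 (YDR307W, chromosome IV, 1075865 to 1077853, plus strand), described as a putative protein mannosyltransferase, had 76306 and 65203 window reads. Its mean 3' end, the read-weighted mean position of its poly(A) sites after the stop codon, lay at 127.5 nt ± 0.131 (SD, n = 2). Its highest positions were 119 nt (30.8% and 29.7% of its reads), 136 nt (10.4% and 10.8%) and 150 nt (5.19% and 5.31%). The ORF YDR524C-B (chromosome IV, 1489598 to 1489798, minus strand) is only 201 nt long and has no known function. It had 77315 and 62507 reads, spread over a region far downstream, with 17.0% and 15.7% at 317 nt, 10.3% and 13.5% at 337 nt, and 10.8% and 10.9% at 302 nt. Its mean 3' end was 271.6 nt ± 6.80 (SD, n = 2), and 212.8 nt where only positions 1 to 300 are counted. YCR087C-A (chromosome III, 264006 to 264467, minus strand), whose GFP fusion lies in the nucleolus, had 64505 and 51926 reads and a compact end at 63.8 nt ± 0.208, with 51.5% and 53.0% of reads at 63 nt.

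The other 7 had between 17339 and 29780 reads per replicate. MLO50 (YLR049C) ended at 111.6 nt, MCO12 (YKL018C-A) at 99.8 nt and CMI7 (YIL002W-A) at 115.3 nt. YLR287C, whose GFP fusion is cytoplasmic, ended at 255.2 nt ± 0.0432 (SD, n = 2), with 41.9% and 41.3% of reads at 259 nt. The windows of YCR051W, YBR096W and LCL1 (YPL056C) overlap another annotated feature of that strand. The next ORF lies 255, 238 and 373 nt behind their stop codons. Their most used positions (132, 78 and 222 nt) lie before it, and reads further downstream than its start could belong to either feature. YCR051W, an ORF with ankyrin repeats, put 81.6% and 81.7% of its reads at 132 nt. YBR096W, with a GFP fusion in the endoplasmic reticulum, ended at 72.7 nt, and LCL1 at 220.2 nt. The mean 3' ends of the 10 thus ran from 63.8 to 271.6 nt.

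Where they could be measured, the 3' ends of Uncharacterized ORFs lay about as far from the stop codon as those of Verified ORFs. The median of the mean 3' end was 126.7 and 129.7 nt in the replicates (128.2 nt ± 2.09, SD of the replicate medians, n = 2) over the 407 Uncharacterized ORFs. It was 122.1 and 123.3 nt (122.7 nt ± 0.869) over the 4531 Verified ORFs. The median for Uncharacterized ORFs lay 4.61 and 6.33 nt further downstream, while their middle 50% ran from 92.1 to 182.0 nt and from 92.1 to 176.1 nt. Both tails of the distribution held a larger share of the Uncharacterized ORFs, by a small margin at the short end. The shares that follow were not matched on depth or ORF length. A mean 3' end under 60 nt was seen in 24 of them (5.90%) and in 225 Verified ORFs (4.97%), and one beyond 250 nt in 44 (10.8%) and 321 (7.08%). With each ORF weighted equally, 7.02% and 6.95% of the Uncharacterized signal lay beyond 300 nt, against 4.86% and 4.92% of the Verified signal. The first 20 nt after the stop codon held 1.19% in each replicate, against 0.619% and 0.581%. The most used position lay beyond 300 nt in both replicates for 25 Uncharacterized ORFs (6.14%) and 183 Verified ORFs (4.04%). Between 241 and 260 nt the Uncharacterized profile held 3.91% and 3.93% of its signal, against 2.49% and 2.51% for Verified ORFs.

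**Figure D3:**
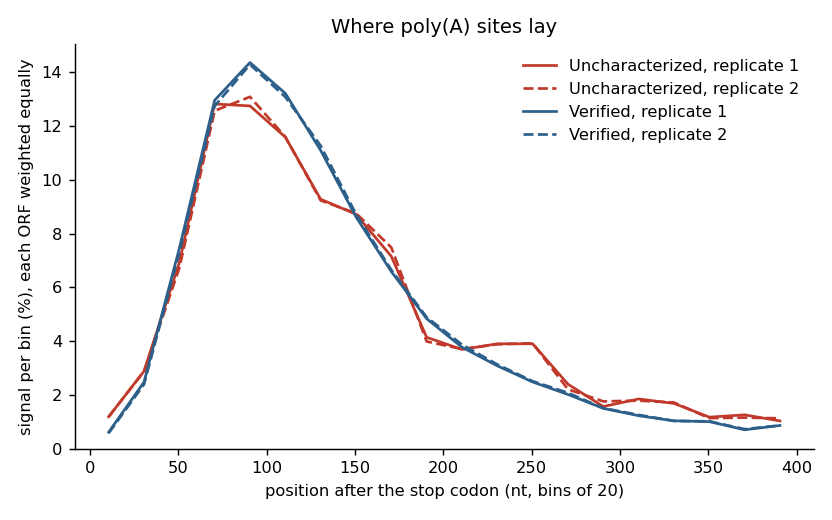
Share of signal (%) in bins of 20 nt after the stop codon, averaged over ORFs with each ORF weighted equally, for 407 Uncharacterized (red) and 4531 Verified (blue) ORFs; solid lines are replicate 1 and dashed lines replicate 2. Both peak between 61 and 100 nt, where the bin from 81 to 100 nt holds 12.8% and 13.1% against 14.4% and 14.3%, and the Uncharacterized line lies above the Verified line near 250 nt and beyond 300 nt.

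The small downstream shift did not appear at every depth. The 407 ORFs were divided into 10 classes by their total window reads, and Verified ORFs were placed in the same classes. The median mean 3' end of Uncharacterized ORFs was further downstream in 5 of the 10 classes and less far in the other 5, with differences from -13.6 to 21.4 nt. With Verified ORFs weighted over these classes the difference was 3.12 nt ± 1.12 (SD, n = 2; 2.33 and 3.91 nt in the replicates), so it kept its direction in both. With at least 500 reads required in each replicate it was 2.08 nt. In both qualifiers the median mean 3' end fell from class to class of ORF length up to 1200 nt, but not beyond that for Verified ORFs. Below 300 nt the median was 169.0 and 169.8 nt for the 45 Uncharacterized ORFs used and 161.8 and 163.1 nt for the 94 Verified ORFs. From 300 to 600 nt it was 160.2 and 163.4 nt against 128.4 and 130.3 nt, which was the widest gap. From 600 to 1200 nt it was 120.5 and 122.1 nt against 117.8 and 118.4 nt. From 1200 nt on it was 120.3 and 119.5 nt against 121.9 and 123.5 nt, and there the Uncharacterized ORFs ended slightly closer to the stop codon.

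**Figure D4:**
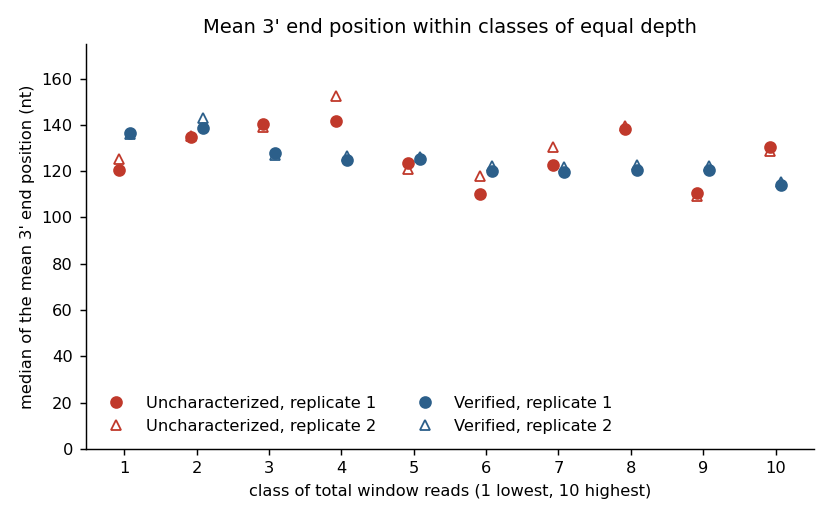
Median of the mean 3' end position (nt) in 10 classes of total window reads, from the lowest (1) to the highest (10), for Uncharacterized (red) and Verified (blue) ORFs; filled circles are replicate 1 and open triangles replicate 2. Uncharacterized medians lie above the Verified ones in 5 classes and below them in 5.

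Among Uncharacterized ORFs the position differed between groups of descriptions. ORFs whose protein was detected in purified mitochondria had the lowest medians among groups with at least 30 used members, 106.6 and 102.4 nt, and 12 of their 33 used members lay beyond the median of all ORFs (122.8 nt), as did 212 of the 407 Uncharacterized ORFs. ORFs with a GFP fusion in the nucleus or nucleolus had medians of 112.4 and 111.3 nt (31 used of 33). The 11 with a fusion in the endoplasmic reticulum, where membrane and secreted proteins are made, were all used, with medians of 154.8 nt in each replicate and a range from 55.9 nt (YDR056C) to 300.4 nt (YNL146W, whose window overlaps another feature). The 13 used with a mitochondrial GFP fusion had 150.8 and 153.2 nt, on the other side of the overall median from the 33 found in purified mitochondria. The 4 used of 5 members of DUP240, a family of membrane proteins, had 207.5 and 180.7 nt. ORFs that have a symbol in RefSeq but none in the deposited tables had 115.2 and 115.4 nt (149 used of 196), and ORFs with no symbol in either had 137.2 and 137.5 nt (214 used of 463). Several of these groups are small, and their members differ in depth and ORF length, whose part in these differences was not tested.

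Extremes were named among the 296 used ORFs whose window overlaps no other annotated feature on the same strand. The shortest 3' end was that of YCX1 (YDL206W, chromosome IV, 90176 to 92464, plus strand), at 25.2 nt ± 0.211 (SD, n = 2). It rested on 406 and 264 window reads, of which 61.1% and 43.2% lay at 26 nt. SMU2 (YIL161W, chromosome IX, 39433 to 40140, plus strand) ended at 39.3 nt ± 2.85 on 620 and 535 reads. LUG1 (YLR352W, chromosome XII, 831116 to 833539, plus strand), which resembles F-box proteins of ubiquitin ligases, had a mean of 44.1 nt ± 2.65 that lay between its main sites. Of its 3143 and 2757 reads, 43.9% and 39.8% lay at 14 nt and 16.2% and 21.3% at 97 nt. AIT1 (YDL180W), with a vacuolar GFP fusion, ended at 45.7 nt ± 3.57 with its highest positions at 44 and 27 nt. YDL057W ended at 47.3 nt ± 1.09, with 63.7% and 53.8% of reads at 41 nt. In each of these 5 ORFs both replicates had the same most used position.

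The longest mean 3' ends lay near the end of the window, which limits them. YNL162W-A (chromosome XIV, 330329 to 330547, plus strand), known by homology alone, had 1409 and 2040 reads, 72.3% and 66.3% of them at 375 nt, and a mean of 366.4 nt ± 1.3 (SD, n = 2). LSO2 (YGR169C-A, chromosome VII, 836387 to 836665, minus strand), the gene of a ribosome-associated protein, had 1111 and 1143 reads and a mean of 360.5 nt ± 1.32. Its reads in positions 1 to 300 had a mean at 59.9 nt, and 96.6% of its reads lay beyond 300 nt. Its paralog YJR005C-A fell just short of the minimum with 91 and 244 reads, so no position is given for it. YOR105W (354.7 nt ± 8.76, 563 and 418 reads) had its highest position at 395 nt, so part of its 3' ends may lie outside the window. YPL077C (354.5 nt ± 4.91) and TVS1 (YCR061W, 348.8 nt ± 0.556) ended mainly at 363 and 358 nt. All 5 lie upstream of a feature on their own strand, at gaps of 484 to 775 nt.

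Uncharacterized ORFs concentrated their reads on single sites about as much as Verified ORFs did. The most used position took a median of 33.5% and 33.7% of an ORF's reads, against 33.5% and 33.6%. It took more than 50% in both replicates for 67 Uncharacterized ORFs (16.5%) and 744 Verified ORFs (16.4%). The effective number of positions (a count of sites weighted by their use, from Shannon's entropy) had medians of 8.69 and 8.50 against 8.44 and 8.42. The difference between these medians changed sign when ORFs with overlapping windows were left out (-0.0565). YBL113C (chromosome II, 280 to 2658, minus strand), a helicase-like ORF within a Y' element, had the highest share at 1 position, 90.1% and 81.9% at 77 nt, on 293 and 155 reads. TOS6 (YNL300W, chromosome XIV, 65744 to 66052, plus strand), of a cell wall protein anchored by glycosylphosphatidylinositol, had 8389 and 6152 reads and put 80.5% and 83.3% of them at 256 nt. YBR138C put 74.6% and 80.8% at 149 nt. YPL088W, a putative aryl alcohol dehydrogenase, put 76.1% and 73.3% at 84 nt, and YMR181C 75.8% and 72.2% at 288 nt.

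At the other end, RBP95 (YCR016W, chromosome III, 143634 to 144506, plus strand), a nucleolar protein predicted to act in ribosome biogenesis, used an effective number of 23.1 and 22.7 positions. Its 1574 and 1684 reads had their highest position at 156 nt in replicate 1 and at 190 nt in replicate 2, with 17.3% and 20.1% of the reads there. YGL140C, predicted to span membranes several times, used 23.0 and 18.8 positions, and MRP35 (YNL122C), with a mitochondrial GFP fusion, 20.3 and 19.9. YMR187C used 21.4 and 18.5 on 320 and 244 reads, and DPC13 (YGL041W-A) 20.2 and 19.5 on 1350 and 1278 reads. Of these 5, MRP35 and RBP95 had different leading positions in the replicates.

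Between the replicates, the mean 3' ends of Uncharacterized ORFs moved more than those of Verified ORFs, and the 2 medians lay close together once depth was matched. The median movement was 2.67 nt, against 1.96 nt for Verified ORFs. It was 2.66 nt for Verified ORFs weighted to the same read classes, which left a difference of 0.0137 nt. Within the 10 read classes the movement was larger for Uncharacterized ORFs in 6 and smaller in the other 4. The most used position was the same in both replicates for 331 Uncharacterized ORFs (81.3%) and 3807 Verified ORFs (84.0%). A shift of more than 20 nt was seen in 15 (3.69%) and 84 (1.85%). Neither this share nor that of the same most used position was matched on depth. YJR149W, with a cytoplasmic GFP fusion, moved most, from 71.6 nt on 268 reads to 160.6 nt on 341. Its position 37 nt took 36.2% and 24.0% of the reads, and the positions within 5 nt of it 76.1% and 42.5%. In replicate 1 position 33 nt took the same share as 37 nt. Its position 398 nt took 3.36% and 9.09%. YJL047C-A lay at 289.6 and 348.4 nt on 1010 and 683 reads, with its highest position at 399 nt in both, at the edge of the window. In positions 1 to 300 its mean was 20.4 nt. DFP3 (YCR007C), of the DUP240 family, had 3 main sites at 348, 80 and 169 nt. Their shares were 32.0% and 15.3%, 14.4% and 19.8%, and 15.4% and 15.7%, so its mean moved from 212.9 to 161.2 nt while the same sites were used. SDD1 (YEL057C), involved in telomere maintenance, moved from 177.8 to 135.0 nt on 106 and 132 reads. MRX1 (YER077C), with a mitochondrial GFP fusion, moved from 138.2 to 98.2 nt on 233 and 268 reads.

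A few Uncharacterized ORFs had most of their reads inside the coding sequence. The ends of another RNA on that strand would also give such reads. That part was not tested, nor was any part of stretches of A within the RNA. The check for overlap covered only the window, not the ORF itself. YBR219C, which was not used, had 2074 and 2232 reads inside its ORF. YBR220C, whose ORF overlaps it, had 2074 and 2230 window reads. The median share of ORF and window reads that lay inside the ORF was 1.50% and 1.47%, against 1.10% and 1.08% for Verified ORFs. The direction turned when Verified ORFs were weighted over the read classes, with a difference of -0.520 percentage points. Among the ORFs used, the share exceeded 50% in both replicates for 11 Uncharacterized ORFs (2.70%) and 68 Verified ORFs (1.50%). The minimum of 100 window reads left out ORFs with nearly all reads inside, such as MTC7 (YEL033W). MTC7 had 24022 and 21049 reads inside its ORF and 19 and 5 in the window. YJR015W (chromosome X, 462721 to 464253, plus strand), a predicted membrane transporter, had 5508 and 4693 reads inside its ORF and 315 and 256 in the window. Its share was 94.6% (Wilson 95% interval 94.0 to 95.1) and 94.8% (94.2 to 95.4). CMR2 (YOR093C, chromosome XV, 497506 to 502452, minus strand), whose loss sensitizes cells to agents that induce the unfolded protein response, had 89.8% (88.0 to 91.3) and 89.3% (87.4 to 91.0) on 1139 and 1031 ORF reads. YJR149W had 73.0% and 76.4%, MLO127 (YJR039W), found in purified mitochondria, 70.0% in each replicate, and YLR177W 70.6% and 66.3%. Of the 111 Uncharacterized ORFs with no window read, 25 had reads inside the ORF, as did 23 of the 77 such Verified ORFs. At least 100 over both replicates were present for 3 Uncharacterized and 5 Verified ORFs. The 3 Uncharacterized ORFs were picked after their values were seen. YGR240C-A had 219 and 360, RBH2 (YJR030C), which lies upstream of a transposon remnant, 104 and 116, and YMR084W 87 and 36.

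The median 3' end differed with the gap to the downstream neighbour. By kind of neighbour it was 127.1 and 128.0 nt (convergent), 122.9 and 128.5 nt (same strand) and 147.7 and 147.8 nt (19 ORFs, no direction). Of the 407 ORFs used, 212 (52.1%) faced a convergent feature, 176 (43.2%) were followed by a feature on the same strand, and 19 had a neighbour with no direction, such as a replication origin. The convergent neighbour was a Verified or Uncharacterized ORF for 174. In these the median mean 3' end was 90.8 and 90.1 nt where the gap between the stop codons was under 100 nt (35 ORFs) and 125.0 and 128.6 nt for gaps of 100 to 200 nt (56 ORFs). It was 156.5 and 157.7 nt for gaps of 200 to 300 nt (49 ORFs) and 177.7 and 173.2 nt for gaps of 300 to 400 nt (18 ORFs). The 16 ORFs with a gap of at least 400 nt lay at 127.3 and 135.5 nt and broke this order. Verified ORFs rose from 93.2 and 94.0 nt at gaps under 100 nt to 145.9 and 145.8 nt at 300 to 400 nt, and their 241 ORFs at wider gaps lay at 174.8 and 175.5 nt.

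Overlap with the convergent neighbour was common. The most used position of an Uncharacterized ORF reached into the neighbour's ORF in both replicates for 43 of 174 (24.7%), and that of a Verified ORF for 424 of 2017 (21.0%). For gaps under 100 nt these were 21 of 35 and 194 of 269, for 100 to 200 nt 14 of 56 and 184 of 715, and for 200 to 300 nt 7 of 49 and 38 of 509. Reads on opposite strands were kept apart in the tables as far as the values show. In 125 and 127 convergent pairs whose windows both covered the most used coordinate of the Uncharacterized ORF, the neighbour had no read at that coordinate in 104 and 108, and in no pair were the 2 counts equal. Among the 143 ORFs followed by an ORF on the same strand, the median was 81.5 and 78.5 nt for 14 gaps of 100 to 200 nt and 90.1 and 90.3 nt for 35 gaps of 200 to 300 nt. It was 137.4 and 130.3 nt for 31 gaps of 300 to 400 nt and 141.5 and 141.9 nt for 61 gaps of at least 400 nt. The 2 ORFs with gaps under 100 nt broke this order, with medians of 258.9 and 259.0 nt. These were YBR090C and YBR220C, which overlap the next ORF (gaps of -156 and -308 nt). At all gaps under 400 nt the window reaches the next ORF, and reads inside that ORF could belong to either feature. The most used position reached it in 1 of the 14 ORFs with gaps of 100 to 200 nt. It did so in 0 of 35 at 200 to 300 nt and 0 of 31 at 300 to 400 nt. Verified ORFs had 81.1 and 83.8 nt (92 ORFs), 95.02 and 95.95 nt (424), 118.5 and 118.9 nt (405) and 140.6 and 141.3 nt (734) in the same 4 wider classes, and 137.5 and 146.8 nt for 15 gaps under 100 nt.

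**Figure D5:**
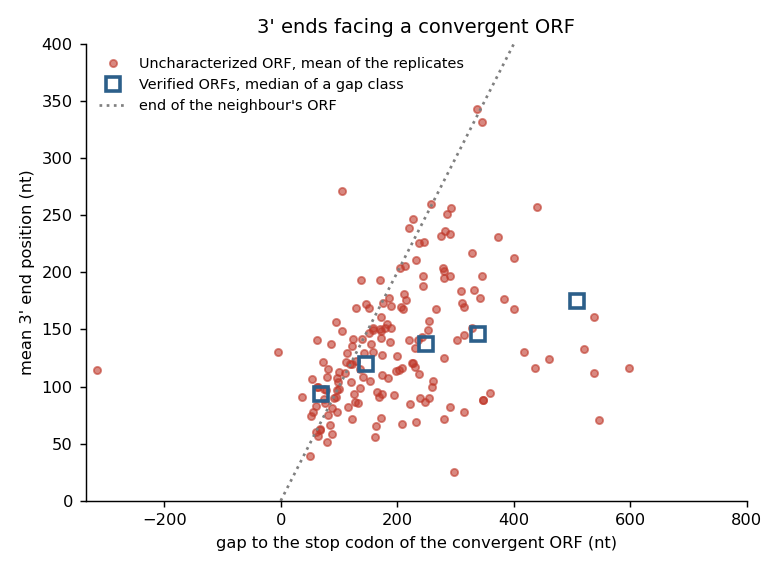
Mean 3' end position (nt, mean of the 2 replicates) of Uncharacterized ORFs that face a convergent Verified or Uncharacterized ORF (red points) against the gap between the stop codons (nt); blue squares are medians of Verified ORFs in 5 classes of gap, placed at the median gap, and the dotted line marks the end of the neighbour's ORF. Of 174 ORFs, 5 with gaps above 800 nt are not shown, and points above the line have mean 3' ends inside the neighbour's ORF.

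Name families were few among Uncharacterized ORFs. Of the 9 with an FMP name in the tables, given to proteins found in mitochondria, 7 were used. They ran from FMP27 (YLR454W) at 81.0 nt ± 1.90 (SD, n = 2), on 933 and 813 reads, to FMP41 (YNL168C) at 173.8 nt ± 0.945, on 11286 and 10757 reads. Of the 5 with an RRT name, from a screen for reduced transcription of ribosomal DNA, 3 were used, from RRT15 (YLR162W-A) at 56.4 nt ± 0.348 to RRT13 (YER066W) at 119.7 nt ± 2.93. The 2 members of the PAU family of cell wall proteins, PAU11 and PAU14, had no window read in either replicate. They belong to a large family of similar copies, in which reads could be split or lost. No Uncharacterized ORF had an AIM, IRC or COS name.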

How the data were processed

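Poly(A) sites were measured by 3' READS in 2 biological replicates of 1 strain. The submitters' processing notes name Bowtie. Not given in the sources used here: its version, the genome build, strand handling and the treatment of multiply matching reads. The deposited signal values (reads in the ORF, in the window of 400 nt and at its highest position) are reads times 1 factor per library, 0.858 in replicate 1, 0.940 in replicate 2 and 0.897 in the table of both pooled. The other deposited values give each position relative to the highest, set to 100, and deposited percent values, per the file headers, are shares of a gene's reads. Whole reads were recovered by division: 99.998% and 99.995% of positions (ORFs with at most 2000 reads at the highest) and 99.9% of window totals in each replicate lay within 0.1 of a whole number. Recomputed and deposited mean positions differed by no more than 0.0945 nt. Neither count models nor tests were run, as there is 1 group.

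ORFs with at least 100 window reads in both replicates were used. Ties for the most used position went to the most upstream. Highest positions of 1 ORF are at least 10 nt apart. Overlap means that the window meets another annotated feature on the same strand. Matching weighted Verified ORFs over 10 classes of window reads (edges at the deciles of the Uncharacterized ORFs) or 5 of ORF length. The named ORFs are the 5 shortest, 5 longest, 5 with the highest leading share, 5 with the highest effective number, 5 with the largest replicate difference and 5 with the highest share inside the ORF, all without overlap, the 10 most read, and 6 name families. Members, lists and rule were chosen with earlier results of these data known. Symbols are those of the tables or of RefSeq (R64), where 726 of 728 matched by locus tag. No sequence is shown, since no genome was used here. Scripts used Python 3.11.15, numpy 2.4.6, pandas 2.3.3 and SciPy 1.17.1, and were tested on simulated data.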

Additional observations from a re-analysis of the deposited data

How the results depend on the processing

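The comparison with Verified ORFs rests on small differences, most of which moved with the processing. The median mean 3' end of Uncharacterized ORFs stayed further downstream under every alternative tried. The difference (5.47 nt) became 6.97 nt with at least 20 window reads, 2.08 nt with at least 500, 3.12 nt after matching on reads, 3.06 nt in positions 1 to 300 and 3.81 nt after matching on ORF length, and single replicates gave 4.61 to 6.33 nt. Matching on length was chosen after seeing the data. The difference in leading share (0.0814 percentage points) became 0.810 after matching on reads, -0.374 in positions 1 to 300, -0.654 in the pooled table and 0.461 for stretches of 5 positions, and ranged from -0.00455 to 0.167 in single replicates. That in effective number (0.161) became -0.245 with at least 20 reads, -0.0565 without overlaps and 0.283 in the pooled table, and ranged from 0.0802 to 0.242. That in the share inside the ORF (0.396 percentage points) became 0.434 with at least 20 reads, 0.0181 with at least 500, 0.276 without overlaps, -0.520 after matching on reads, 0.327 in the pooled table and 0.850 after matching on length, and ranged from 0.393 to 0.400. The difference in replicate movement (0.709 nt) became 1.19 nt with at least 20 reads, 0.356 nt with at least 500, 0.932 nt without overlaps, 0.0137 nt after matching on reads and 0.738 nt in positions 1 to 300. The cause of these changes was not tested. The share of Uncharacterized ORFs used (55.9%) was 67.3% at 20 reads, 32.6% at 500, 59.6% without overlaps and 57.6% to 57.8% in single replicates. The ratio of median window reads (5.38) was 4.62 without overlaps, 3.09 among ORFs with at least 1 read in each replicate and 5.87 for reads at the highest position, and ranged from 5.21 to 5.56. No paired analysis was possible because there is 1 group. Windows of 400 nt limit the longest 3' ends, and ORFs under 100 reads have no position here.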
